A study of Mus musculus with 163 samples.

Results

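The genes described here write, copy and remove DNA methylation, or bind the proteins that do, and were read together with Dppa3 (also called Stella) in single mouse oocytes. They were chosen as the rows of the deposited count table whose gene identifier matched Dnmt1, Dnmt3a, Dnmt3b, Dnmt3l, Uhrf1, Uhrf2, Tet1, Tet2, Tet3 or Dppa3. Of these 10 genes, 9 were among the 21950 genes of the table, and Tet3 was not analysed here. Each of the 9 genes had at least 1 read in 163 of 163 oocytes, and each passed the filter on low values in all 10 comparisons.

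Each sample was 1 oocyte, taken at the growing stage (GRO) or at the fully grown stage (FGO), freed of follicular cells and of the zona pellucida, and sequenced from polyadenylated RNA with the Smart-seq2 protocol. The iPSC-derived group (23 GROs, 24 FGOs) came from the BVSC-iPSC line, 1 female mouse line that carries Blimp1-Venus and Stella-ECFP reporters. Its cells were turned into primordial germ cell-like cells (in vitro PGC differentiation, IVP), sorted on both reporters and aggregated with somatic cells of E12.5 gonads of outbred Swiss Webster mice for in vitro oocyte differentiation (IVD), then taken through in vitro growth (IVG). Gonad-derived oocytes (24 GROs, 24 FGOs) began as germ cells of E12.5 gonads and shared IVD and IVG, the 6 dpp FGOs (24) grew in culture from follicles of mice 6 days after birth and shared IVG alone, and the in vivo oocytes (24 GROs, 20 FGOs) were never cultured. By the study's methods, IVG was shorter for gonad-derived and 6 dpp follicles, so iPSC-derived FGOs differ from both in length of IVG too.

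What limits these groups as models follows from the same sources. By the study's own account, germ cells left among the gonadal somatic cells may have given rise to some oocytes of these aggregates, and whether the sequenced oocytes were picked on the reporter was not stated. Strain was not given for the in vivo and 6 dpp oocytes, nor age for the in vivo oocytes, so that strain and culture step cannot be told apart in any comparison of 2 sources. The study also reports that iPSC-derived and gonad-derived GROs exceeded in vivo GROs in size, and oocyte size was not taken into account here. The labels name no animal, embryo or culture behind an oocyte. Each group therefore counted as 1 sample, no p-value or standard error is given, and the spread quoted is the spread between oocytes.

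DNA methylation places a methyl group on cytosine, mostly where it precedes guanine (a CpG). DNMT3A is the enzyme that methylates new sites in oocytes and needs its partner DNMT3L there, which has no enzyme activity of its own, whereas DNMT3B acts mainly in the embryo after implantation. DNMT1 copies the pattern onto the new strand after replication, guided by UHRF1, which recognises CpGs methylated on 1 strand. UHRF2 is the relative of UHRF1. TET enzymes oxidise methylated cytosine as a step of its removal. Primordial germ cells lose most of their methylation, and it is set again while the oocyte grows, in cells that no longer divide. DPPA3, a small maternal protein, shields maternal methylation from TET3 in the zygote and keeps UHRF1 out of the nucleus of the oocyte.

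Levels are given in counts per 1000000 reads (CPM). For a group this is the pooled level, the summed reads of a gene over the summed reads of all its oocytes, with an exact Poisson 95% interval. Reads amplified from 1 molecule carried no identifier, so the interval covers counting error alone. A ratio is log2((pooled CPM + 0.5)/(pooled CPM + 0.5)), and a gene was called when it was past 2-fold, that is, when its log2 ratio was at least 1 in size. A level is a share of a library, so a difference between groups and a difference in total RNA per oocyte cannot be told apart.

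Libraries held 2.17 to 13.7 × 1000000 reads, with a median of 6.93 × 1000000. Even the scarcest reading, 2 reads of Uhrf2 in each of iPSC-derived FGOs 4 and 19, rested on a full library. All 12 genes of the oocyte marker list were detected in each group, from Figla at 44.3 to 161 CPM up to Padi6 and Gdf9. A list of 12 measured granulosa cell markers summed to a median of 231 to 395 CPM per group, of which Serpine2 made up most, while 3 cumulus cell and 3 blood markers stayed near 0. Some FGOs stood apart from their groups. In vivo FGOs 5, 7, 19 and 22 lay among GROs on a stage axis in an earlier analysis of these data, an axis not computed here. Of these, only FGO 7 correlated better with a GRO group than with its own group. Gonad-derived FGO 19 had the lowest median correlation with its own group (r = 0.893, against a group median of 0.976), and 6 dpp FGO 12 carried 1893 CPM of granulosa and 832.5 CPM of theca and stroma markers. Their values are given beside the results they touch.

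Set per kilobase of the deposited exonic length, the 6 more abundant members kept the same order in 6 of 7 groups, Uhrf1 and Dnmt3l changing places in 6 dpp FGOs. Dppa3 was among the most abundant transcripts of the oocyte, at 1243 to 3064 CPM per kilobase, with 9 to 26 genes above it in a group. Dnmt1 came next at 171 to 529 CPM per kilobase and Uhrf1 at 65.5 to 197, and both exceeded at least 93.55% of all genes in every group. The de novo partners Dnmt3l, at 35.3 to 78.5, and Dnmt3a, at 17.2 to 26.5 CPM per kilobase, lay lower. Dnmt3b, at 3.16 to 5.90, and then Uhrf2, Tet1 and Tet2, at 0.418 to 2.25 CPM per kilobase, closed the order. The last 3 lay near the middle of all genes and changed places among themselves, with Uhrf2 first in the 3 GRO groups and in in vivo FGOs and Tet2 first in the 3 cultured FGO groups. The deposited length exceeded the longest annotated transcript for 8 of the 9 genes, so these values per kilobase are low estimates for them.

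**Figure D1:**
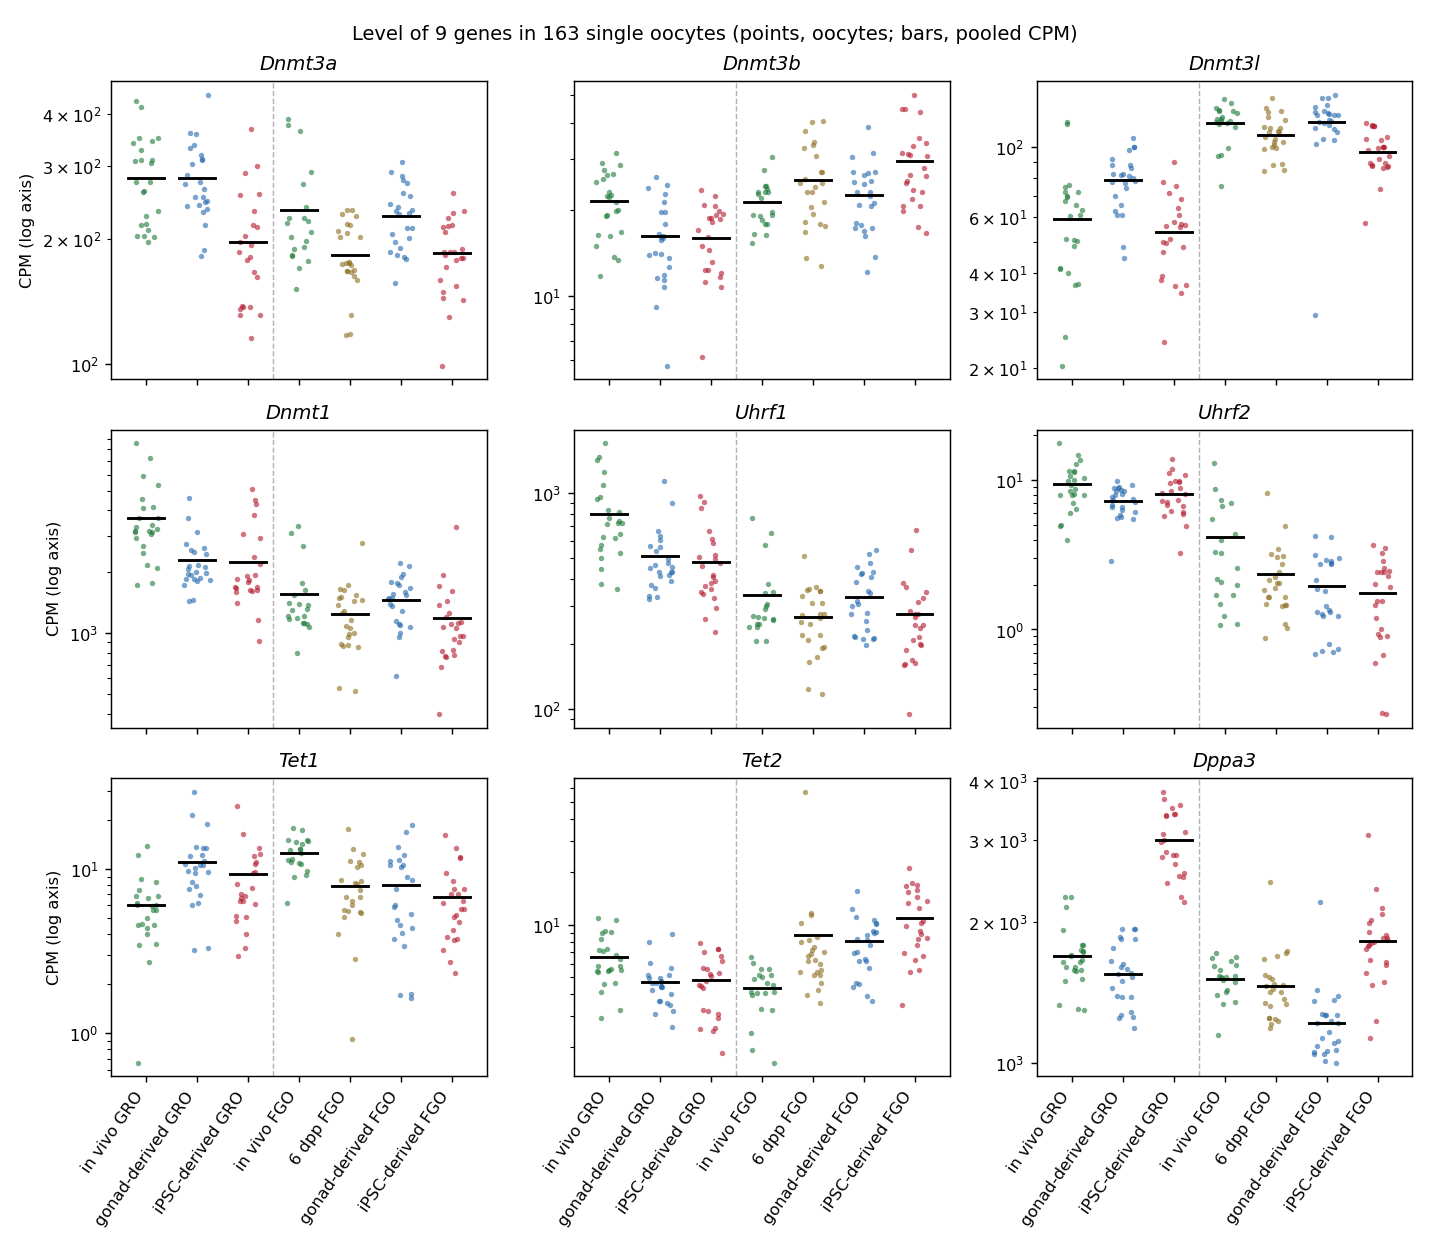
Level of each of the 9 genes in CPM (log axis) in every oocyte (points), with the pooled level of the group (bars), for 3 GRO groups left of the dashed line and 4 FGO groups right of it. Dnmt1, Uhrf1 and Uhrf2 are lower in FGOs, Dnmt3l is higher, and the iPSC-derived GROs stand above both other GRO groups for Dppa3.

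Of the de novo genes, Dnmt3a differed least between groups and Dnmt3l most. Dnmt3a (chr12:3801559-3914443, plus strand of GRCm38, as all coordinates here) had the smallest range of the members, with a pooled level from 183 CPM in 6 dpp FGOs to 281 CPM in gonad-derived GROs, a factor of 1.53. Its single oocytes ranged from 98.8 to 446 CPM over all groups. They ranged from 117.5 to 235.5 CPM in 6 dpp FGOs and from 182 to 446 CPM in gonad-derived GROs. The iPSC-derived GROs held 197 CPM (95% interval 195 to 199.3) against 281 (278 to 283) in gonad-derived GROs. This ratio of -0.51 on the log2 scale lay at the 7.93th percentile of all genes in that comparison, and 11 of 23 iPSC-derived GROs were below every gonad-derived GRO. At the FGO stage the same sources differed by -0.30. From GRO to FGO the ratio was -0.25 in vivo, -0.30 in gonad-derived and -0.09 in iPSC-derived oocytes, and the in vivo ratio was -0.45 without in vivo FGOs 5, 7, 19 and 22. Exons of Dnmt3aos lie on the other strand at this locus, and its own row reached at most 2.25 CPM.

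Dnmt3l, the partner that DNMT3A needs in oocytes, was higher in FGOs than in GROs of every source. The gene lies at chr10:78042287-78063622 on the plus strand. The median level was 60.7 CPM (oocytes from 20.3 to 120.6) in in vivo GROs, 80.6 (44.6 to 107) in gonad-derived GROs and 55.8 (24.2 to 89.6) in iPSC-derived GROs. In FGOs it was 122 CPM (75.4 to 142.5) in vivo, 109 (83.9 to 143.5) in the 6 dpp group, 124 (29.3 to 146.8) in the gonad-derived and 98.6 (57.5 to 119) in the iPSC-derived group. All 20 in vivo FGOs exceeded the median of in vivo GROs, and 21 of 24 in vivo GROs were below every in vivo FGO. The log2 ratio of FGO to GRO was 1.00 in vivo, just short of 2-fold at a fold of 1.99, 0.60 in gonad-derived and 0.84 in iPSC-derived oocytes. The single low gonad-derived FGO, 29.3 CPM beside 102.7 to 146.8 in the others, is FGO 19, and without it and 6 dpp FGO 3 the gonad-derived ratio was 0.65. Among GROs, Dnmt3l was lower in the iPSC-derived than in the gonad-derived group by -0.55 on the log2 scale, at the 6.88th percentile of all genes, and among FGOs by -0.31, where 15 of 24 gonad-derived oocytes were above every iPSC-derived one and none of the 24 iPSC-derived oocytes reached the gonad-derived median. Exons of Aire lie on the other strand here, with at most 14.5 CPM in its own row.

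Dnmt3b (chr2:153649411-153687730, plus strand) was low throughout and highest in iPSC-derived FGOs. Its pooled level hardly differed between in vivo GROs (21.4 CPM, oocytes from 11.7 to 31.6) and in vivo FGOs (21.3 CPM, 15.3 to 30.5), with a ratio of -0.01. In gonad-derived oocytes it was 16.2 CPM (5.73 to 25.9) in GROs and 22.6 (12.1 to 38.8) in FGOs, and in iPSC-derived oocytes 15.9 CPM (6.15 to 23.4) in GROs and 29.7 (16.7 to 50.4) in FGOs. The FGO to GRO ratios of these 2 sources were 0.47 and 0.88. In the iPSC-derived series 17 of 24 FGOs were above every GRO, and 11 of 24 iPSC-derived FGOs were above every in vivo FGO.

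The maintenance genes Dnmt1 and Uhrf1 went together, between groups and from oocyte to oocyte. Dnmt1 spans chr9:20907206-20959888 on the minus strand and Uhrf1 chr17:56303337-56323486 on the plus strand. RefSeq (GRCm38.p6) lists 3 transcription starts for Dnmt1 and 2 for Uhrf1, and the counts, made per gene, do not separate them. The RefSeq window of 300 bases around the start, most of it upstream, is shown for the outermost pair of Dnmt1 starts and for both starts of Uhrf1. They are written 5′ to 3′ on the gene's own strand, with capitals marking the letters TTTNNCGC or their reverse complement GCGNNAAA, the form of an E2F site, E2F proteins being regulators of replication genes.
Dnmt1 start 1, chr9:20959839-20960138, minus strand: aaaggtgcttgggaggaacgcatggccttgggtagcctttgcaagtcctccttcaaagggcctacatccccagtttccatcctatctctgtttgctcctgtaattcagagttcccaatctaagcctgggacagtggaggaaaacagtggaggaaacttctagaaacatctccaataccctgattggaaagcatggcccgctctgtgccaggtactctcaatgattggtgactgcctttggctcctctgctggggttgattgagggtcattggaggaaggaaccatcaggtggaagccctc
Dnmt1 start 3, chr9:20952574-20952873, minus strand: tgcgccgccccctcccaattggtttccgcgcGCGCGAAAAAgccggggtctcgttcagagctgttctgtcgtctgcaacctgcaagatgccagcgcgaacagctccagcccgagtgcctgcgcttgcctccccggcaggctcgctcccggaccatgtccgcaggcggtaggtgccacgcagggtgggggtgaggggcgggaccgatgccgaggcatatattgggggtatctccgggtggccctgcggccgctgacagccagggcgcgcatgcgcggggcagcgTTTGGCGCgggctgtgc
Uhrf1 start 1, chr17:56303087-56303386, plus strand: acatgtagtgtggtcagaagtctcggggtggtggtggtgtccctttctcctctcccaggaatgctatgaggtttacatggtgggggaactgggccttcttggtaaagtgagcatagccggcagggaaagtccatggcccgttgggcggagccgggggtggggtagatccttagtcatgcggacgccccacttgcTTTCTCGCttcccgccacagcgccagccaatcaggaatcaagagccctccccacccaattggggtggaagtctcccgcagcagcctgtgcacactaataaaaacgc
Uhrf1 start 2, chr17:56304063-56304362, plus strand: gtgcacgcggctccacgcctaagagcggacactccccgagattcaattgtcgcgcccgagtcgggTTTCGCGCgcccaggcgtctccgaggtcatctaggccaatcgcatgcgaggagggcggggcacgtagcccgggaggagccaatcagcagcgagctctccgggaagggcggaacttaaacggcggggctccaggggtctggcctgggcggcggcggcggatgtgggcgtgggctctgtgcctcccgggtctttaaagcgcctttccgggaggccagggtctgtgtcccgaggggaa

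Read in order, the Dnmt1 windows go from CpG-poor to CpG-rich, with 2 CpGs at start 1, 12 at start 2 and 33 at start 3, against a median of 7 over 32851 promoter windows of the same length. Start 3 of Dnmt1 held 3 matches to the E2F-type letters, 2 of them overlapping in the first capital run, and each Uhrf1 window held 1, with 12 CpGs at start 1 and 33 at start 2. Of the 16 windows listed for the members, these 3 were the only ones with a match, and 5.17% of all windows had one. Both strands were searched also for the E-box letters CACGTG, found in start 3 of Dnmt3a and start 2 of Dnmt3l and in 7.15% of all windows, and for TAATTG, found in no member window and in 8% of all. These matches describe letters and not bound sites. Which start the oocytes used, and whether the letters bear on the levels of these genes, was not tested. RefSeq windows were matched for 8 of the 9 measured genes, Dppa3 being the one without.

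In single oocytes the median Dnmt1 level was 3217 CPM (1730 to 8556) in in vivo GROs, 2027 (1431 to 4580) in gonad-derived GROs and 1825 (916 to 5070) in iPSC-derived GROs. In FGOs it was 1303 CPM (802 to 3356) in vivo, 1210 (518 to 2766) in the 6 dpp group, 1493 (612 to 2205) in the gonad-derived and 1062 (399 to 3318) in the iPSC-derived group. The 3 GRO groups thus had the highest levels and in vivo GROs led them, yet neighbouring groups in this order overlapped in all 6 steps. From GRO to FGO the pooled level went from 3678 CPM (3669 to 3688) to 1559 (1553 to 1566) in vivo, a log2 ratio of -1.24. The ratio was -0.65 in gonad-derived oocytes and -0.91 in iPSC-derived oocytes. In vivo, 16 of 20 FGOs were below every GRO, against 10 of 24 in the gonad-derived and 8 of 24 in the iPSC-derived series.

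Uhrf1 followed with the same order of groups in 5 of 7 places. Its median level was 723 CPM (359 to 1702) in in vivo GROs, 452 (323 to 1134) in gonad-derived GROs and 416 (226 to 967) in iPSC-derived GROs. In FGOs it was 266 CPM (205 to 764) in vivo, 267 (117.5 to 511) in the 6 dpp group, 310 (198 to 541) in the gonad-derived and 245 (94.2 to 676) in the iPSC-derived group. FGOs were again the lower stage in each source, with log2 ratios of -1.25 in vivo, -0.63 in gonad-derived and -0.80 in iPSC-derived oocytes. Reads that also match the near copy Gm5648, which shares 1590 bases at 98.3% identity and is not in the table, make the level of Uhrf1 uncertain.

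A few in vivo FGOs had levels of these genes like those of GROs. In vivo FGOs 5, 7, 16, 19 and 22 held the 5 highest levels of 20 for Dnmt1, for Uhrf1 and for Dnmt3a. FGOs 5, 7, 19 and 22 had Dnmt1 levels of 1620 to 3356 CPM, whereas the other 16 ranged from 802 to 1758 CPM. Without these 4 oocytes the growth ratio in vivo was -1.55 for Dnmt1, -1.57 for Uhrf1 and -1.54 for Uhrf2, and 15 of the 16 remaining FGOs were below every in vivo GRO for Dnmt1 and likewise for Uhrf1. FGO 7 correlated better with gonad-derived GROs (median r = 0.969) than with its own group (0.949). FGOs 5, 16, 19 and 22 were each closest to their own group (median r = 0.9665, 0.973, 0.9653 and 0.9705). FGO 22, with 1620 CPM of Dnmt1 and 347.9 CPM of Uhrf1, was below every in vivo GRO for both (lowest 1730 and 359.4 CPM). These oocytes were set apart by expression itself, so the values without them are a description.

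**Figure D2:**
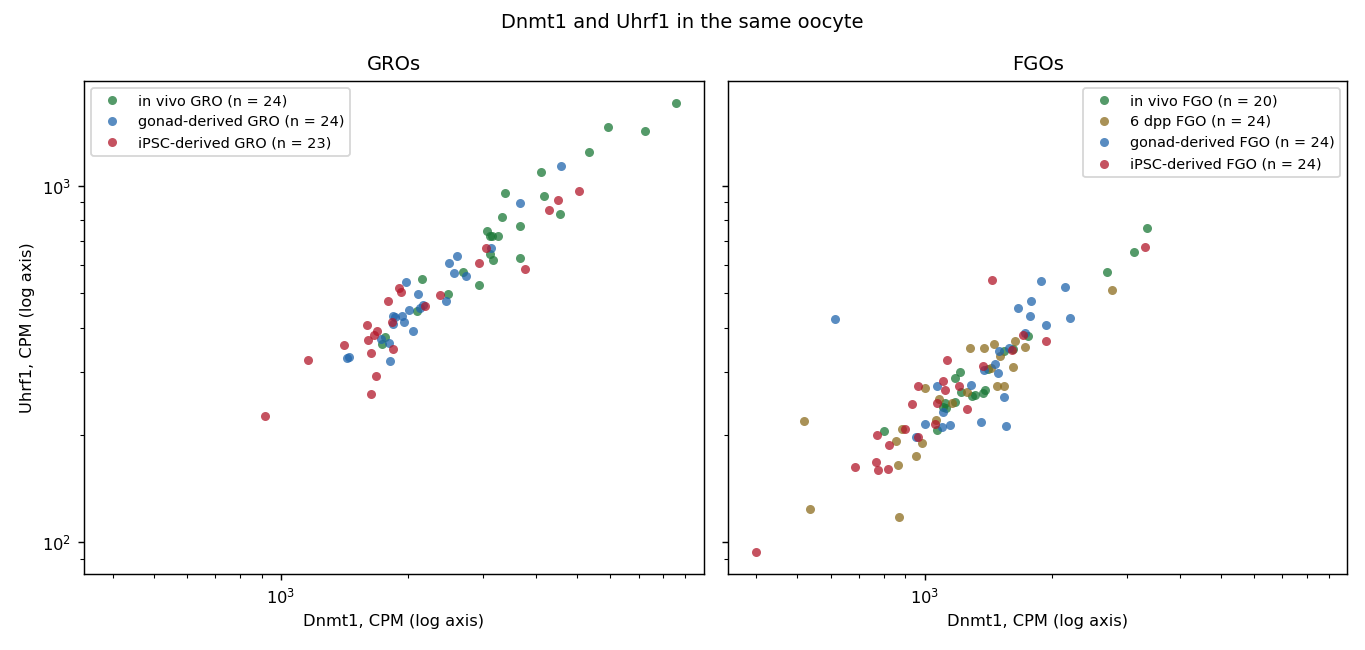
Level of Uhrf1 against Dnmt1 in the same oocyte (CPM, both axes log), for the 3 GRO groups (left) and the 4 FGO groups (right). Most points of a stage lie along 1 line across sources. Among those off it are gonad-derived FGO 19 (Dnmt1 612 CPM, Uhrf1 422 CPM) and 6 dpp FGO 3 (517.8 and 219.5 CPM). Others are 6 dpp FGO 21 (869.3 and 117.5 CPM) and iPSC-derived FGO 13 (1442 and 545.6 CPM).

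Within groups, Dnmt1 and Uhrf1 were high or low in the same oocytes. Spearman's rho over the oocytes of a group had a median of 0.92 over the 7 groups (0.73 to 0.93, 20 to 24 oocytes each). This rho was ranked only against genes abundant in every group, so less abundant genes were not candidates. Among the 2996 genes compared, Uhrf1 had the highest median rho to Dnmt1, and Dnmt1 the highest to Uhrf1. The median over all these genes was -0.10 for either. The ratio of Dnmt1 to Uhrf1 per kilobase had group medians between 2.58 and 2.75. Dnmt3a went with both, at median rho of 0.65 with Uhrf1 (0.15 to 0.88) and 0.62 with Dnmt1 (0.35 to 0.83), and Dppa3 and Dnmt3a had a median of -0.35, with a range from -0.70 to 0.01. The points share library and base composition, which moved too. Dnmt1 correlated with the share of reads in genes of over 55% GC (rho 0.32 to 0.83, median 0.65) and in genes longer than 5000 bases (0.25 to 0.78, median 0.34), both counted without the reads of Dnmt1, Uhrf1 and Dnmt3a. After the ranks of both shares and of library size were taken out, rho between Dnmt1 and Uhrf1 had a median of 0.73 (0.62 to 0.92), that between Dnmt1 and Dnmt3a 0.39 (-0.08 to 0.63) and that between Uhrf1 and Dnmt3a 0.51 (-0.33 to 0.69). The median for Dppa3 went from -0.28 to 0.05 with Dnmt1 (-0.55 to 0.18) and from -0.35 to -0.03 with Dnmt3a (-0.57 to 0.13). The share of reads in GC-rich genes also separated the stages, with group medians of 15.6% to 16.1% in GROs and 12.6% to 13.7% in FGOs, and its part in the growth ratios was not tested.

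Uhrf2 (chr19:30030430-30093726, plus strand), the relative of Uhrf1, was the member with the widest range between groups, a factor of 5.36 at low levels. Its median was 9.02 CPM (3.99 to 17.8) in in vivo GROs, 7.40 (2.88 to 9.91) in gonad-derived GROs and 8.14 (3.28 to 13.9) in iPSC-derived GROs. In FGOs it was 2.92 CPM (1.07 to 13.2) in vivo, 1.97 (0.873 to 8.24) in the 6 dpp group, 1.62 (0.680 to 4.22) in the gonad-derived and 1.74 (0.270 to 3.67) in the iPSC-derived group. Unlike Dnmt1 and Uhrf1, the cultured series had the larger growth ratios, -1.67 in gonad-derived and -1.94 in iPSC-derived oocytes against -1.09 in vivo, or -1.54 in vivo without in vivo FGOs 5, 7, 19 and 22. There, 23 of 24 gonad-derived GROs and 22 of 23 iPSC-derived GROs were above every FGO of their source, against 3 of 24 in vivo, where FGO 19 held 13.2 CPM. That oocyte also had the most granulosa marker reads of its group, 578 CPM, and their part in its Uhrf2 level was not tested.

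Of the oxidation genes, Tet1 (chr10:62804570-62887469, minus strand) was higher in FGOs than in GROs in vivo and lower in both cultured series. Its median was 5.82 CPM (0.660 to 13.8) in in vivo GROs, 10.3 (3.20 to 29.5) in gonad-derived GROs and 7.01 (2.95 to 24.0) in iPSC-derived GROs. In FGOs it was 12.8 CPM (6.21 to 17.7) in vivo, 7.11 (0.924 to 17.5) in the 6 dpp group, 6.78 (1.64 to 18.6) in the gonad-derived and 5.95 (2.32 to 16.2) in the iPSC-derived group. Both the lowest and the highest pooled level were therefore in vivo, 6.03 CPM in GROs and 12.6 CPM in FGOs. All 20 in vivo FGOs exceeded the in vivo GRO median, and the growth ratio in vivo was 1.00, a fold just under 2. It was -0.43 in gonad-derived and -0.43 in iPSC-derived oocytes, so these differed from the in vivo ratio by -1.43 and -1.43. The iPSC-derived ratio was -0.21 without iPSC-derived GRO 20, which held 24.0 CPM in the deepest library, and 10 of 24 iPSC-derived FGOs exceeded the GRO median. No test of that difference could be made, and the spread between oocytes, with a coefficient of variation of 46.3% to 59.8% in every group but in vivo FGOs (23.0%), was large.

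Tet2 (chr3:133463677-133545136, minus strand) ran the other way. In GROs its median was 5.84 CPM (2.92 to 10.9) in vivo, 4.55 (2.62 to 8.81) in the gonad-derived and 4.76 (1.86 to 7.83) in the iPSC-derived group. FGOs had 4.35 CPM (1.63 to 6.53) in vivo, 6.49 (3.59 to 57.3) in the 6 dpp group, 7.90 (3.69 to 15.5) in the gonad-derived and 9.98 (3.50 to 21.0) in the iPSC-derived group. In vivo FGOs thus had the lowest level and iPSC-derived FGOs the highest, and 20 of 24 iPSC-derived FGOs were above every in vivo FGO. The growth ratio was -0.54 in vivo, 0.71 in gonad-derived and 1.09 in iPSC-derived oocytes. All 3 cultured FGO groups exceeded in vivo FGOs, by a log2 ratio of 0.93 for the 6 dpp group and 1.23 for the iPSC-derived group. The 6 dpp value rests in part on FGO 3, at 57.3 CPM beside 3.59 to 11.7 in the others. Without it and gonad-derived FGO 19 the ratio was 0.56.

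Dppa3 (chr6:122626424-122630271, plus strand) varied little between oocytes, with a coefficient of variation of 9.11% to 20.9% by group. It was the least variable member in all 3 GRO groups and in in vivo FGOs, while Dnmt3l or Dnmt3a varied less in the 3 cultured FGO groups. The median level was 1651 CPM (1302 to 2266) in in vivo GROs, 1557 (1191 to 1935) in gonad-derived GROs and 2968 (2204 to 3795) in iPSC-derived GROs. In FGOs it was 1529 CPM (1150 to 1716) in vivo, 1432 (1187 to 2431) in the 6 dpp group, 1193 (1002 to 2209) in the gonad-derived and 1807 (1135 to 3075) in the iPSC-derived group. Among all members over the 10 comparisons, only Dppa3 between iPSC-derived and gonad-derived GROs had no overlap of oocytes. The other members overlapped between these groups. All 23 iPSC-derived GROs were above every gonad-derived GRO for Dppa3, and 21 of 23 were above every in vivo GRO. Non-overlap with iPSC-derived GROs higher held for 0.322% of the 13029 genes compared between iPSC-derived and gonad-derived GROs. This share covers that comparison and direction alone, whereas the members were searched over all 10 comparisons.

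The excess of Dppa3 in iPSC-derived oocytes shrank towards the FGO stage. Against in vivo oocytes the log2 ratio was 0.82 in GROs and 0.27 in FGOs, and the growth ratio was -0.72 in iPSC-derived oocytes, where 22 of 24 FGOs were below every GRO, -0.35 in gonad-derived and -0.16 in in vivo oocytes. The line carries a Stella (Dppa3) reporter, and any reads of the reporter transgene and of the endogenous gene cannot be told apart in these counts. Prdm1 (also called Blimp1), the gene of the other reporter, was likewise higher in iPSC-derived than in gonad-derived oocytes, by 0.98 in GROs (pooled 26.6 against 13.3 CPM) and 0.84 in FGOs (102 against 56.9 CPM), with overlapping oocytes in both stages. Of the pluripotency and primordial germ cell markers, 1 of 6 was past 2-fold higher in iPSC-derived GROs, beside 2.03% of all genes, and 1 of 7 in iPSC-derived FGOs, beside 2.3%. It was Klf4 in both stages, at 1.69 (9.36 against 2.57 CPM) and 1.32 (8.89 against 3.28 CPM). The medians of that list were 0.15 and 0.53, and its part in the Dppa3 level was not tested. The near copy Dppa3-ps, which shares 451 bases at 98.2% identity and is not in the table, leaves the level uncertain as well. Gonad-derived FGO 19 held 2209 CPM beside 1002 to 1434 in the rest of its group, and 6 dpp FGO 3 held 2431 beside 1187 to 1735. Without both, the IVP ratio in FGOs was 0.63.

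Growth was compared within each source, to ask how these transcripts differ between growing oocytes, in which methylation is set again, and fully grown ones. In vivo, 3 of 9 members were past 2-fold, the maintenance genes Dnmt1, Uhrf1 and Uhrf2, all lower in FGOs, where 23.7% of 13148 genes were past 2-fold and 13.2% were so in the lower direction. Dnmt3l and Tet1 stayed just short on the higher side and were past 2-fold, making 5 members, under either other scaling of the libraries. With a pseudocount of 2 CPM the ratio of Uhrf2 was -0.89 and 2 members were past 2-fold. In gonad-derived oocytes 1 member, Uhrf2, was past 2-fold, with a background of 15.8%. In iPSC-derived oocytes 2 were, Uhrf2 lower and Tet2 higher, with a background of 22%, and Tet2 was back within 2-fold when medians over oocytes were compared. With so high a background, these shares are not read as a property of the members. In direction, 6 of 9 members had the same sign in all 3 series: Dnmt3l was higher in FGOs, and Dnmt3a, Dnmt1, Uhrf1, Uhrf2 and Dppa3 were lower. Tet1, Tet2 and Dnmt3b differed in sign between in vivo and cultured oocytes, Dnmt3b from a ratio near 0. Marker lists differed in the same comparisons. Granulosa markers past 2-fold higher in FGOs were 6 of 11 in vivo, 3 of 9 in gonad-derived and 3 of 8 in iPSC-derived oocytes, beside 10.4%, 5.82% and 6.69% of all genes, with list medians of 1.28, 0.78 and 0.48. Without in vivo FGOs 16 and 19 the count in vivo was 3 of 11 and the median 0.78. Gja1 went from 3.88 to 2.80 without FGO 19 (30.6 to 14.2 CPM in FGOs), while Cyp19a1, at 2.79, was spread over the oocytes (25.1 to 93.5 CPM in FGOs). Oocyte markers past 2-fold lower were 5, 7 and 8 of 12, beside 13.2%, 9.98% and 15.3% of all genes, with medians of -0.82, -1.21 and -1.54. Of 4 theca and stroma markers, 2 were past 2-fold higher in vivo (Dcn 1.78, Cyp11a1 1.52), also without in vivo FGOs 16 and 19. In gonad-derived growth 0 of 4 were, and in iPSC-derived growth 1 of 4 (Dcn 1.93). Has2, the 1 cumulus marker that passed the filter, was at 1.31 in vivo. The part of all these markers in the ratios of the members was not tested.

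**Figure D3:**
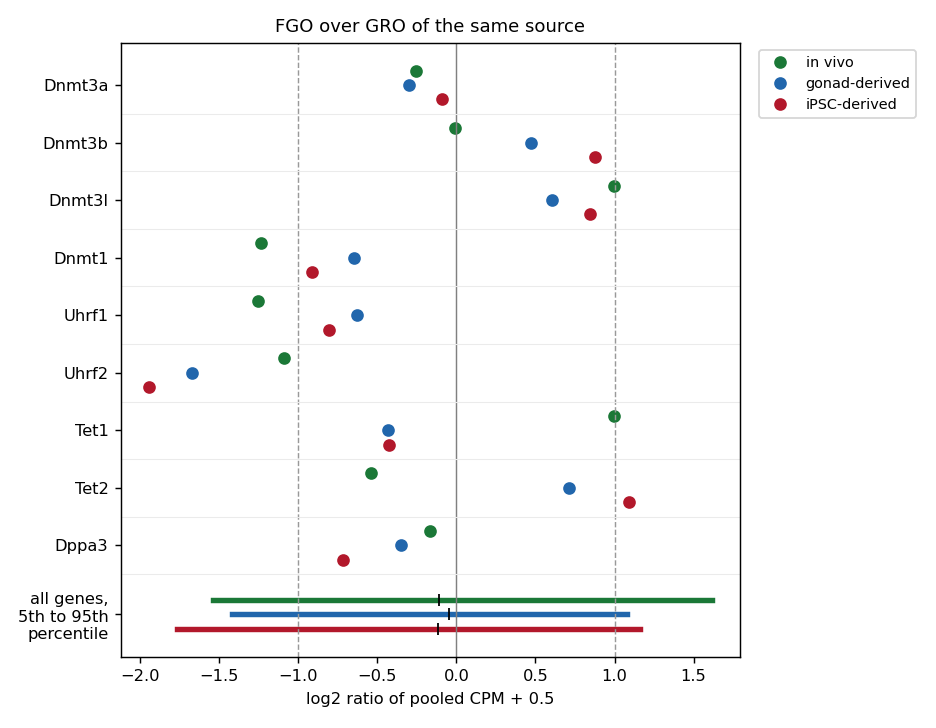
Log2 ratio of pooled CPM + 0.5, FGO over GRO, for each gene in 3 sources (points), with dashed lines at 2-fold and, below, the 5th to 95th percentile of all genes (ticks, medians). The 3 sources agree in side for Dnmt1, Uhrf1, Uhrf2 and Dnmt3l and lie on opposite sides for Tet1 and Tet2.

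The culture steps were then compared at each stage, to ask how these transcripts differ between sources that part at IVP, IVD or IVG. No member was past 2-fold in IVP@GRO (iPSC-derived over gonad-derived, background 3.83%), IVD@GRO (gonad-derived over in vivo, 7.04%), IVP@FGO (6.21%), IVD@FGO (gonad-derived over 6 dpp, 2.59%) or IVG@FGO (6 dpp over in vivo, 4.38%). The same held for iPSC-derived against in vivo GROs (9.99%). Across the whole path, iPSC-derived against in vivo FGOs, 2 members were past 2-fold, Tet2 higher at 1.23 and Uhrf2 lower at -1.05, with a background of 14.5%. With medians over oocytes Uhrf2 was at -0.61 and Tet1 at -1.05, so that Tet1 took the place of Uhrf2. Uhrf2 dropped back within 2-fold without in vivo FGO 1, 7, 19 or 22 singly, and its ratio was -0.59 without FGOs 5, 7, 19 and 22 together. In the same comparison 5 of 12 oocyte markers (Nlrp5 -1.50, Padi6 -1.45, Zp2 -1.30) and 4 of 10 granulosa markers (Gja1 -3.69, Hsd17b1 -2.15) were past 2-fold lower, beside 10.3% of all genes, and 4 and 3 were so without in vivo FGOs 16 and 19. Gja1 was at -2.61 without FGO 19, and the part of these markers in the ratios of Tet2 and Uhrf2 was not tested. The comparisons share control groups, so their values stand side by side and are not independent of each other.

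The most extreme member differed by step. In the IVP comparisons it was Dppa3, with ratios of 0.95 at GRO (97.73rd percentile of all genes) and 0.58 at FGO (93.59th). In IVD@GRO, Dnmt1 (-0.69), Uhrf1 (-0.65), Tet2 (-0.42) and Dnmt3b (-0.39) were lower and Tet1 (0.82) and Dnmt3l (0.40) higher in gonad-derived oocytes, and 22 of 24 gonad-derived GROs were above the in vivo median for Tet1. IVD@FGO had the smallest ratios of the 5, between -0.27 for Dppa3 and 0.32 for Dnmt3a. In IVG@FGO, Uhrf2 (-0.70) and Tet1 (-0.64) were lower and Tet2 (0.93, at the 98.38th percentile of all genes) higher in 6 dpp FGOs, and Tet2 was at 0.56 without 6 dpp FGO 3. Dnmt1 at -0.34 and Uhrf1 at -0.33 were also lower there, but without in vivo FGOs 5, 7, 19 and 22 these ratios were -0.03 and -0.02, and that of Uhrf2 was -0.25. Marker genes of oocytes and of somatic cells differed in these steps too. In IVP@FGO, 1 of 9 granulosa markers was past 2-fold lower (Gja1 -1.87), beside 6.21% of all genes in either direction. Gja1 was at -1.54 there without gonad-derived FGO 18. In IVD@FGO, 5 of 7 theca and stroma markers (Hsd3b1 -4.89) and 3 of 9 granulosa markers (Inhba -3.06, Gja1 -2.78) were past 2-fold lower, beside 0.948% of all genes, and in IVG@FGO 4 of 6 theca and stroma markers (Hsd3b1 3.79) were past 2-fold higher, beside 1.25%. In IVG@FGO, 2 of 12 oocyte markers (Nlrp5 -1.42, Padi6 -1.10) were past 2-fold lower, beside 3.12% of all genes, with a median of -0.58 over the list. Of 11 granulosa markers there, Inhba was higher (2.28, and 0.77 without 6 dpp FGO 12) and Amh lower (-1.66). Amh was at 0.006 CPM in 6 dpp FGOs, so the size of its ratio depends on the pseudocount of 0.5 CPM. In IVD@GRO, 2 of 8 granulosa markers (Cyp19a1 1.07, Gja1 -1.20) and 2 of 4 theca and stroma markers (Cyp11a1 1.27, Hsd3b1 -1.07) were past 2-fold, beside 7.04% of all genes, and Hsd3b1 was at -0.85 without in vivo GRO 21. Without 6 dpp FGO 12 and in vivo FGOs 16 and 19 the theca and stroma and granulosa counts in IVD@FGO were 2 and 2 and the theca and stroma count in IVG@FGO was 1, and without FGO 12 alone Hsd3b1 was at -3.88 and 2.78, and in IVD@FGO Inhba was at -1.55 and Gja1 at -0.43. The Dnmt1 level of FGO 12 ranked 18th of 24, and the part of the markers in the ratios of the members was not tested.

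**Figure D4:**
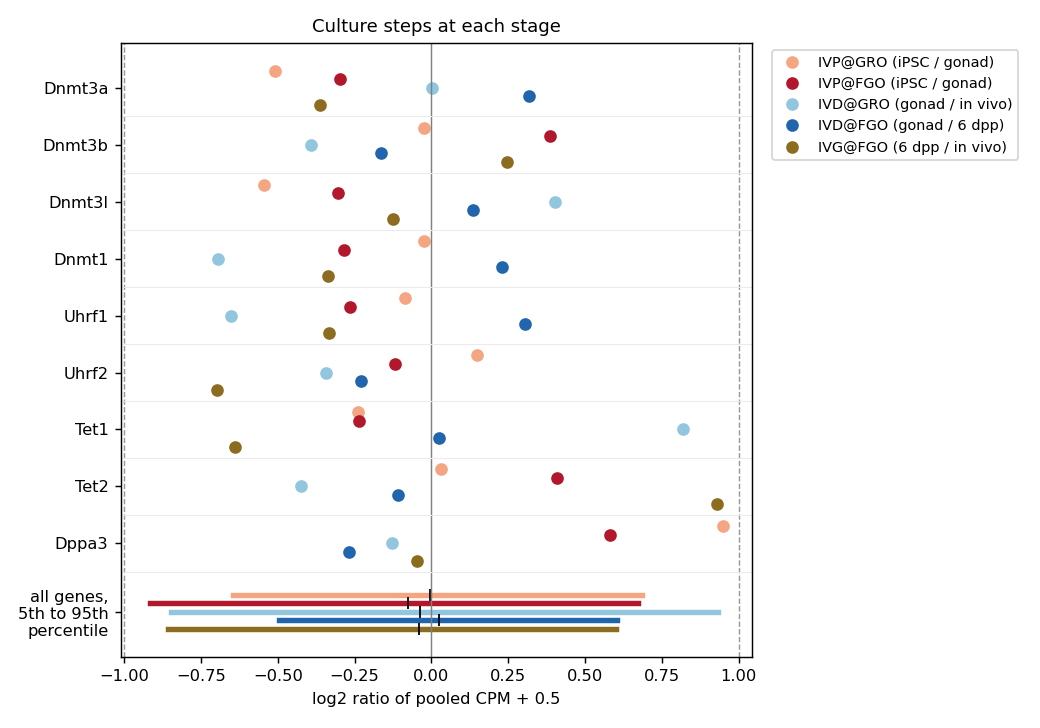
Log2 ratio of pooled CPM + 0.5 for each gene in the 5 comparisons of a culture step (points), with dashed lines at 2-fold and, below, the 5th to 95th percentile of all genes. Dppa3 in IVP@GRO and Tet2 in IVG@FGO are the points closest to 2-fold.

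Other genes of the pathway were read from 5 lists. Genes of chromatin marks that guide DNMT3A and DNMT3L (12 measured) gave 1 gene past 2-fold higher and 2 lower in each of the 3 growth series, which is 3 of 12 beside 23.7% of all genes in vivo, 15.8% in gonad-derived and 22% in iPSC-derived oocytes and is not read as a property of the list. Ehmt2, a histone H3 lysine methyltransferase, was lower in FGOs by -2.43 in vivo (13.5 to 2.10 CPM), -1.90 in gonad-derived and -2.94 in iPSC-derived oocytes. Kdm1b, the histone demethylase needed for maternal imprints, was lower too, by -1.31 in vivo, where the level went from 933 CPM (oocytes 619 to 1158) to 376 (153.5 to 583), and by -1.44 and -2.14 in the gonad-derived and iPSC-derived series. The higher one was Nsd1, whose product methylates histone H3 in oocytes ahead of DNA methylation, at 1.47 in vivo (79.4 to 221 CPM), 1.01 and 1.07. The median ratio of the list was -0.41 in vivo, 0.24 and 0.19, beside medians over all genes of -0.11, -0.05 and -0.11.

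Of base excision repair genes, which act downstream of TET enzymes, 13 of 18 were in the table and 10 passed the filter. Of these, 3, 1 and 3 were past 2-fold in vivo, in gonad-derived and in iPSC-derived growth, beside the 23.7%, 15.8% and 22% of all genes given before. Parp1 was lower in FGOs in each series, at -1.57 in vivo (129.7 to 43.4 CPM), -1.31 and -1.87, whereas the glycosylase gene Neil3 was higher, at 1.40 in vivo (46.5 to 123 CPM) and 1.02 in iPSC-derived oocytes. Tdg, the glycosylase for oxidised cytosine, did not pass the filter. Near copies were not sought for it and only uniquely mapped reads were counted, so lost reads and a lack of transcript cannot be told apart. Among cofactors and regulators of DNMT and TET proteins, 13 of 15 passed the filter and none was past 2-fold in vivo, 1 in gonad-derived and 2 in iPSC-derived oocytes, shares below those of all genes in each. Cdca7, which helps the remodeller HELLS, was lower at -1.61 in gonad-derived and -2.25 in iPSC-derived oocytes, and Ogt, a partner of TET proteins, at -1.29 in iPSC-derived oocytes.

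Methyl-CpG readers and methyl donor genes completed the lists. Zfp57, which guards imprints, was the most abundant reader at 2044 to 3833 CPM by group. Of 9 readers, the only one past 2-fold during growth, against the same shares of all genes, was Zbtb33 (Kaiso), at 1.21 in gonad-derived and 1.50 in iPSC-derived oocytes. For methyl donor synthesis, 2 of 12 measured genes were past 2-fold lower in vivo, 2 in gonad-derived and 4 in iPSC-derived oocytes, and none was higher. Over all genes 13.2%, 9.98% and 15.3% were past 2-fold lower in these comparisons, so the count in vivo is near that of all genes. Shmt1, of folate metabolism, and Ahcyl1 were among them in each series, with ratios of -1.36 and -1.27 in vivo. Between iPSC-derived and in vivo FGOs, where 14.5% of all genes were past 2-fold in either direction, 2 of 13 measured cofactors, 1 of 10 repair genes, 1 of 9 readers, 4 of 12 chromatin genes and 2 of 12 methyl donor genes were. Among them, Kdm1b (-1.26), Cdca7 (-1.35), Setd2 (-1.14), Mat1a (-1.33) and Parp1 (-1.03) were lower, and Cxxc1 (1.10), Idh1 (1.24) and Gnmt (1.36) were higher. In that comparison Setd2, which methylates histone H3 along gene bodies, had 6.40 CPM (2.24 to 10.3) in iPSC-derived and 14.8 (9.22 to 25.6) in in vivo FGOs. In IVP@GRO, IVP@FGO and IVD@FGO no gene of the 5 lists was past 2-fold, where 3.83%, 6.21% and 2.59% of all genes were. In IVD@GRO, Gnmt, which uses up the methyl donor, was higher (1.40, 21.6 against 7.85 CPM) and Ehmt2 lower (-1.09, 6.06 against 13.5 CPM) in gonad-derived oocytes. The reader Zbtb38 was lower there (-1.72, 0.611 against 3.15 CPM) and in IVG@FGO (-1.26, 1.39 against 4.03 CPM).

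**Figure D5:**
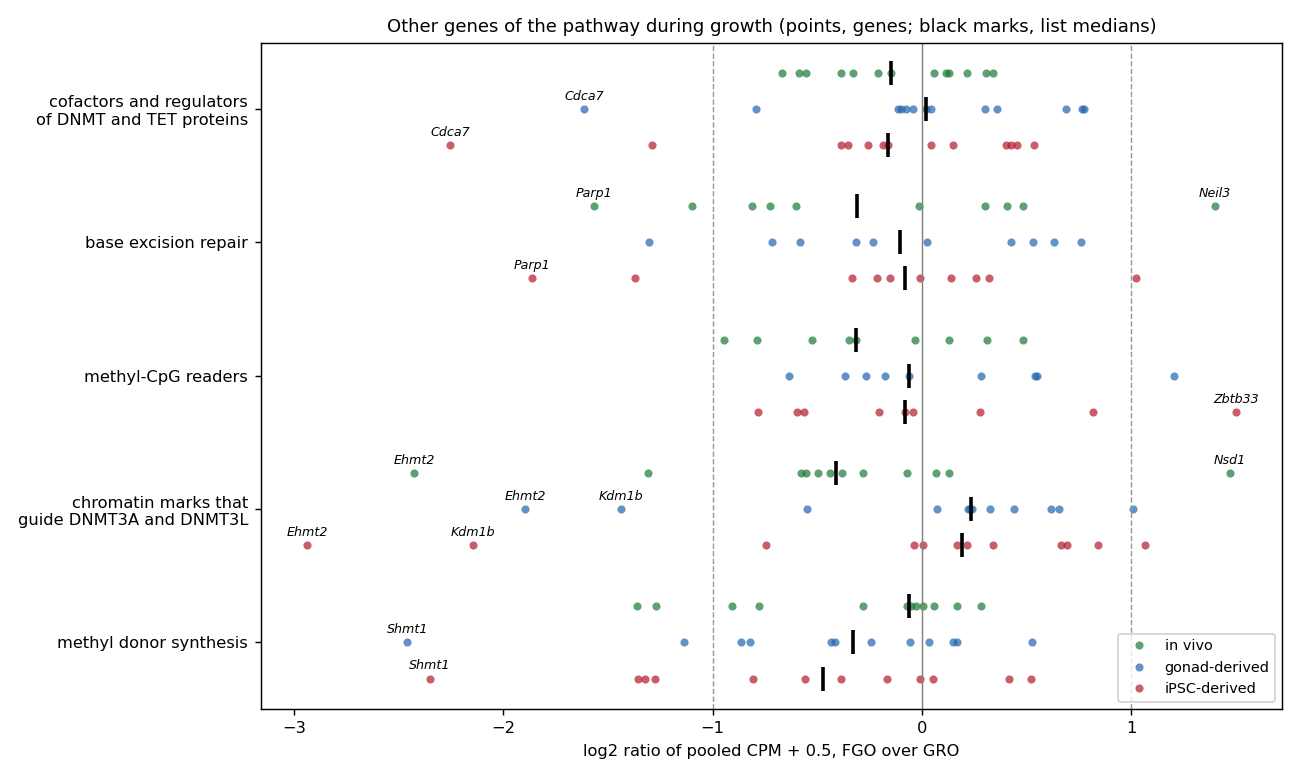
Log2 ratio, FGO over GRO, of the other measured genes of the pathway in 5 lists (points, by source; black marks, list medians; dashed lines, 2-fold). Ehmt2, Kdm1b, Parp1, Cdca7 and Shmt1 lie furthest to the lower side and Nsd1, Neil3 and Zbtb33 to the higher.

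Likeness of pattern was measured as Pearson's r of log2(pooled CPM + 0.5) over the 7 groups, among 8450 genes, for the members whose levels spanned at least 2-fold. Sbno1 was closest to both Dnmt1 (r = 0.997) and Uhrf1 (r = 0.994), at 35.1 CPM in in vivo GROs and 16.6 in iPSC-derived FGOs. Prmt9 was closest to Uhrf2 (r = 0.998), E330012B07Rik and Gata3 to Dnmt3l (r = 0.990 and 0.990). For the TET genes these were Nlrp9c, an oocyte gene, for Tet1 (r = 0.983) and Adrm1 for Tet2 (r = 0.987). Dppa3 had the loosest match, Gnb5 (r = 0.963). With 7 points that share the same libraries and so many genes searched, such values are a description alone.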

How the data were processed

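Single oocytes were sequenced from polyadenylated RNA (Smart-seq2). Per the study's methods, the authors aligned reads with STAR (version not given in the sources used here) to GRCm38/mm10 with spike-in sequences, placing reads of several matches at random, and deposited counts of uniquely mapped exonic reads per gene, made with QuasR on UCSC known genes. Use of strand was not stated, and spike-in genes were not used here. From the deposited counts, CPM was computed on each library's total (2.17 to 13.7 × 1000000 reads). A gene was compared if CPM exceeded 1 in at least 3 oocytes of the groups compared, the pseudocount was 0.5 CPM and the size rule 2-fold. Of 21950 genes, 43 had no symbol. Levels within a group carry exact Poisson intervals from pooled reads, and no hypothesis test was run because the labels name no animal or culture behind an oocyte.

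The members and the gene lists were chosen with earlier results of these data known. All members were named, and Prdm1 as the other reporter gene. From each pathway list, up to 3 genes of the largest ratio past 2-fold with at least 5 CPM in the higher group were named, with up to 2 examples by level, and for likeness the 3 closest genes were found. Tdg, Zbtb38 and the marker genes named fall outside this rule and were chosen after their values were seen. Near copies were sought with BLAST+ 2.17.0+ in annotated transcripts. Alternatives were TMM and median-of-ratios scaling, pseudocounts of 0.1 and 2, medians and mean logs over oocytes, an edgeR 4.0.16 quasi-likelihood coefficient (value only), oocytes left out singly and in sets, libraries thinned to 2000000 reads, a 4-fold rule, and no filter. The script was tested on simulated data. Python 3.11.15, numpy 2.4.6, pandas 2.3.3, scipy 1.17.1, matplotlib 3.10.9 and R 4.3.3 were used.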

Additional observations from a re-analysis of the deposited data

How the results depend on the processing

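No paired analysis was possible because no result comes from a test and the replicate numbers only name oocytes. Of 90 member ratios, 11 changed sign under any of 14 alternatives, none of them above 0.33 in size, and of the 36 ratios of at least 0.5 none did. The count of members past 2-fold in growth in vivo was 3 and became 5 with TMM, median-of-ratios size factors, a pseudocount of 0.1, medians over oocytes, mean logs or the edgeR coefficient, as Dnmt3l and Tet1 crossed 2-fold, and it was 2 with a pseudocount of 2, where Uhrf2 was at -0.89. It ranged from 3 to 5 with single oocytes left out. In iPSC-derived growth the count of 2 became 1 with a pseudocount of 2 or medians over oocytes (Tet2), and 3 without iPSC-derived FGO 18, where Dnmt1 crossed. In IVG@FGO the count of 0 became 1 with the edgeR coefficient (Tet2 1.04) and without in vivo FGOs 5, 7, 19 and 22 (Tet2 1.01), while Tet2 was at 0.56 without 6 dpp FGO 3. Between iPSC-derived and in vivo FGOs the count of 2 became 1 with a pseudocount of 2, with mean logs, with libraries thinned to 2000000 reads, without in vivo FGO 7 and gonad-derived FGOs 5 and 22, without in vivo FGOs 5, 7, 19 and 22, and without 6 dpp FGO 12 and in vivo FGOs 16 and 19, and it was 1 at the lowest with single oocytes left out. With medians over oocytes it stayed 2, with Uhrf2 lost (-0.61) and Tet1 gained (-1.05). At 4-fold the count was 0 in growth in vivo, in gonad-derived and iPSC-derived growth and between iPSC-derived and in vivo FGOs. Beyond settings that hold fewer oocytes or a stricter rule, the cause was not tested. Leaving out gonad-derived FGO 19 and 6 dpp FGO 3 was chosen after seeing the data. Depth limits Uhrf2, Tet1 and Tet2 most, at as few as 2, 4 and 8 reads in an oocyte.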
